A study of Mus musculus with 17 samples.

Results

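The comparison described here is the left ventricle (LV) at postnatal day 7 (P7) against the left ventricle at postnatal day 0 (P0), the net change over the first week of life. Its members are the 3 LV P7 and 3 LV P0 libraries, chosen by their titles, 6 of 17 libraries in all. The LV P7 group holds male C57Bl/6 mice at an age when, per the labels, most cardiomyocytes have reached terminal differentiation. The LV P0 group holds male C57Bl/6 mice before closure of the ductus arteriosus. No genotype, allele or agent distinguishes the groups, and the labels call the 3 libraries of a group biological replicates without saying whether each came from 1 animal or from a pool. The other 11 libraries (LV P3, RV P0 and RV P3 with 3 each, RV P7 with 2; RV, right ventricle) entered the linear model for its estimate of spread, and the RV also gave the test of a difference between chambers. The labels name no cell sorting, so RNA of cardiomyocytes, vessels, fibroblasts and blood cells shares each library.

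At birth the mammalian left ventricle takes over the systemic circulation at a higher pressure and a higher oxygen tension, and milk replaces glucose and lactate with fat as the main fuel. In rodents cardiomyocytes leave the cell cycle during the same days, exchange fetal for adult isoforms of contractile proteins and enzymes, and acquire a dense capillary bed. Fatty acids reach the myocyte through lipoprotein lipase on the capillary wall, carriers and binding proteins in the endothelium and the sarcolemma, and acyl-CoA synthetases, while growing cells use sterol, serine and nucleotide synthesis.

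Transcript levels were deposited as RPKM (reads per kilobase of transcript, scaled to sequencing depth), 1 value per RefSeq messenger RNA entry. The depth, estimated from the steps between low values, was 33324250 to 36513100 reads in the LV P7 libraries and 30593500 to 41144950 reads in the LV P0 libraries. Where several entries of a gene were tested, the most abundant one stands for it, and where a gene has several entries the value can leave out reads shared among them. The sum of all RPKM values was 319072 to 339399 at P7 and 393860 to 401687 at P0. The first principal component of the 6 libraries held 86.2% of the variance, with P7 libraries at 31.6 to 34.0 and P0 libraries at -36.5 to -26.9. One entry, NM_008710, which the annotation used leaves unnamed, stood apart within ages: LV P7 libraries had 3.19, 0.174 and 0.185 RPKM, against 6.75, 15.6 and 12.0 RPKM in the LV P0 libraries. The LV P3 libraries had 14.6, 0.128 and 0.146 RPKM. All 3 P0 libraries were thus high, while replicates 2 and 3 were low at both P3 and P7. Replicate 1 lay within the P0 range at P3 and between the low libraries and the P0 libraries at P7. In part this split cannot be told apart from age. The labels give 1 strain name for all libraries, and the part of this split in the results was not tested. With P7 replicate 1 alone, 22 of the 296 entries named by rule lost their call; those described below are given with their adjusted p in that fit. The calls of Bmp4, Casq2, Chrm2, Gata4, Gja1, Lmna, Nr3c1, Plin4 and Tfrc, described below and outside that rule, were lost in it too (adjusted p from 0.0503 to 0.409). Of the 12 cardiomyocyte markers tested none was at 0 in either group, and their summed level was 31770.1 to 33789.8 RPKM at P7 and 37901 to 43511 at P0. Genes with near-identical copies (Hba-a1, the Tuba1 genes, Rpl3, Eef1a1 and in part the Scd genes) are uncertain, since no source used here says how reads that map to several places were treated.

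Of 10668 tested entries, 6922 changed between P7 and P0 (64.9%), 1264 higher at P7 (11.8%) and 5658 lower at P7 (53.0%), by limma with Benjamini-Hochberg adjustment. The median log2 change over all tested entries was -0.31, with the middle 50% of entries between -0.56 and -0.03. After upper-quartile scaling, which sets a high quantile of the tested entries equal in all libraries, the median was -0.02 (a shift of 0.29), with 2604 entries higher (24.4%) and 2698 lower (25.3%). Under both scalings 1264 entries were higher at P7 and 2698 lower, of which 295 and 248 changed more than 2-fold, and 1 entry was called in opposite directions by the 2 scalings. These 1264 are all the entries called higher as deposited. The scaling moved the median up by 0.29, so it could hardly end a higher call and tests mainly the lower ones. With LV P7 replicate 1 alone, 4513 entries were called (1002 higher, 3511 lower), of which 4450 were among the 6922 in the same direction and 0 in the opposite one. The members of each list below are read against the shares of called entries. In 1349 tested entries (12.6%) all 3 P7 libraries lay above all 3 P0 libraries, and in 6085 (57.0%) below. Separate groups in single genes below are thus common among all entries, and most genes shown were picked for a large change. Errors of RPKM levels are the SD of 3 libraries, errors of log2 changes are the SE, and log2 changes are of RPKM + 1, which shrinks the change of entries near or under 1 RPKM.

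**Figure D1:**
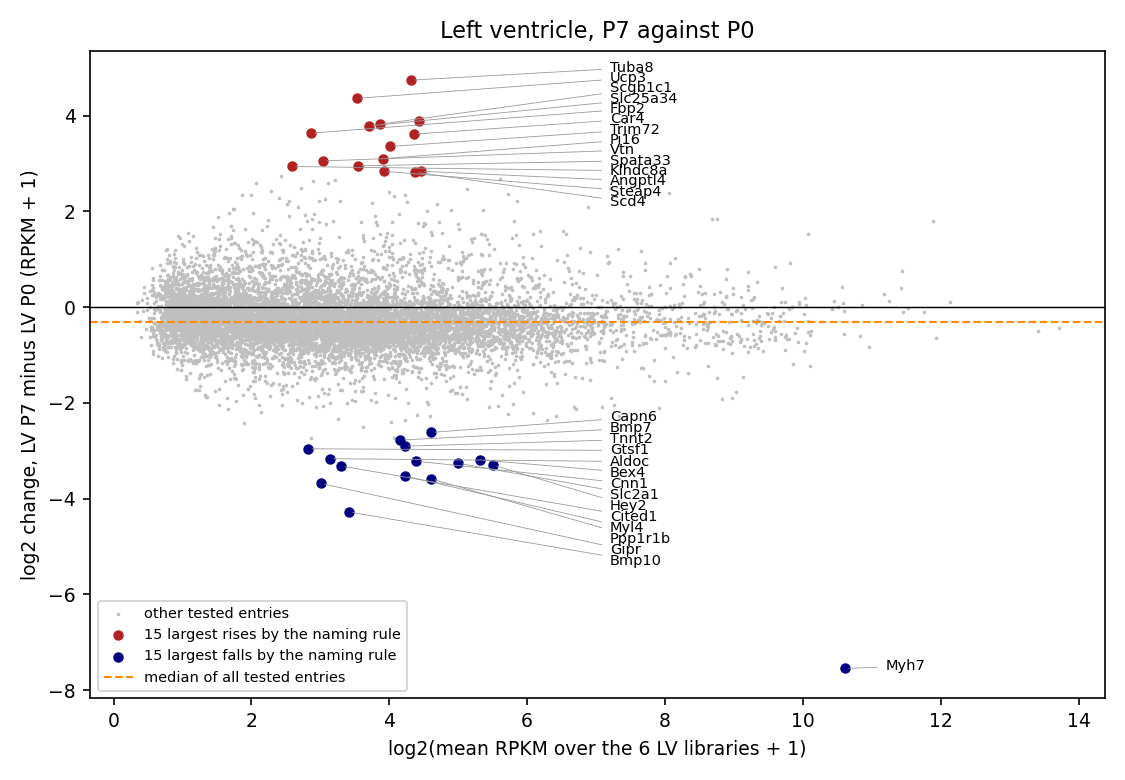
Each point is 1 of 10668 tested entries, with its log2 level averaged over the 6 LV libraries on the x axis and its log2 change from P7 minus P0 on the y axis. The 15 highest and 15 lowest genes by the naming rule are coloured and all but 1 of them labelled, from Tuba8 (4.74) to Scd4 (2.82) and from Capn6 (-2.62) to Myh7 (-7.54), and the dashed line is the median of all entries at -0.31.

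The highest genes by the naming rule span mitochondrial carriers, membrane repair, the capillary surface and the matrix. Tuba8, an alpha-tubulin of striated muscle and testis (chr6:121210734-121226098), had 40.2, 33.7 and 37.7 RPKM at P7, against 0.204, 0.847 and 0.303 RPKM at P0 (log2 change 4.74 ± 0.23, adjusted p = 7.56e-12). Ucp3, the uncoupling protein of muscle mitochondria (chr7:100472991-100486432), had 24.5, 18.9 and 19.7 RPKM at P7, against 0.0398, 0.0536 and 0.111 RPKM at P0 (log2 change 4.36 ± 0.17, adjusted p = 5.13e-13). In both the 3 P7 libraries lie far above the 3 P0 libraries, all of which are below 1 RPKM. Trim72, also called MG53, which seals tears in the muscle membrane (chr7:128003462-128011393), had 31.8, 25.1 and 27.9 RPKM at P7, against 1.14, 2.95 and 1.73 RPKM at P0 (log2 change 3.36 ± 0.23, adjusted p = 7.48e-10). Car4, a carbonic anhydrase anchored on the outer face of capillary endothelium and of the sarcolemma (chr11:84957754-84966054), had 39.2, 33.3 and 37.4 RPKM at P7, against 1.44, 3.96 and 1.38 RPKM at P0 (log2 change 3.61 ± 0.27, adjusted p = 3.04e-09). Steap4, a metalloreductase that reduces iron and copper (chr5:7960472-7982213), had 26.5, 24.4 and 25.6 RPKM at P7, against 2.62, 3.49 and 2.13 RPKM at P0 (log2 change 2.84 ± 0.16, adjusted p = 4.34e-11). None of these groups of 3 overlapped, which the naming rule requires. Within P0, replicate 2 was the highest library for Tuba8, Trim72, Car4 and Steap4.

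The set also held Scgb1c1, Slc25a34 (an orphan mitochondrial carrier), Fbp2, Pi16, Vtn, Spata33, Klhdc8a, Angptl4 and Scd4. Pi16, a secreted peptidase inhibitor homologue of fibroblasts (chr17:29318796-29328903), had 23.1, 24.5 and 30.2 RPKM at P7, against 2.02, 2.51 and 1.86 RPKM at P0 (log2 change 3.10 ± 0.20). Vtn, the adhesive plasma and matrix protein vitronectin (chr11:78499120-78502325), had 16.1, 12.0 and 13.0 RPKM at P7, against 0.801, 0.79999 and 0.662 RPKM at P0 (3.05 ± 0.18). Klhdc8a, a kelch-domain gene (chr1:132298490-132307357), had 10.3, 7.69 and 10.8 RPKM at P7, against 0.377, 0.476 and 0.273 RPKM at P0 (2.94 ± 0.13). All 3 genes sit below 3 RPKM in every P0 library and above 7 RPKM in every P7 library. Spata33 averaged 19.7 ± 3.38 RPKM at P7 and 1.69 ± 0.618 at P0.

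Among the lowest genes, transcription regulators and secreted signals stand beside fetal contractile genes. Hey2, a Notch-responsive repressor of the compact ventricular wall (chr10:30832359-30842783), had 8.32, 7.04 and 6.74 RPKM at P7, against 86.7, 70.6 and 86.5 RPKM at P0 (log2 change -3.30 ± 0.11, adjusted p = 7.54e-14). Bmp7, a bone morphogenetic protein (chr2:172868012-172940321), had 3.09, 3.72 and 3.86 RPKM at P7, against 34.0, 27.1 and 29.7 RPKM at P0 (log2 change -2.78 ± 0.11, adjusted p = 6.31e-13). Bex4, a small X-linked gene of the brain-expressed family (chrX:136138996-136140443), had 6.06, 7.79 and 6.80 RPKM at P7, against 75.7, 64.8 and 71.7 RPKM at P0 (log2 change -3.19 ± 0.18, adjusted p = 6.39e-11). In all 3 genes every P0 library was more than 6 times as high as the highest P7 library. Capn6, a non-proteolytic calpain of embryonic muscle (chrX:143802236-143827412), had 4.99, 5.96 and 5.82 RPKM at P7, against 54.1, 25.8 and 43.2 RPKM at P0 (log2 change -2.62 ± 0.23, adjusted p = 1.86e-08). Gtsf1, known in mice for transposon silencing in the male germline (chr15:103402458-103430445), had 0.760, 0.163 and 0.742 RPKM at P7, against 17.7, 7.54 and 9.46 RPKM at P0 (log2 change -2.96 ± 0.30, adjusted p = 1.32e-07). The P0 libraries of these last genes spread more than 2-fold among themselves. All 3 P0 libraries lay above every P7 library, which the naming rule requires. Bmp10, a ligand of trabecular and atrial myocardium, is listed at 0 in all 3 P7 libraries, against 27.0, 12.3 and 18.5 RPKM at P0. The set also held Myh7, Gipr, Ppp1r1b, Myl4, Cited1, Slc2a1, Cnn1, Aldoc and an entry of Tnnt2. Myh7, the slow beta-myosin heavy chain, had 14.7, 15.9 and 15.8 RPKM at P7, against 3438, 2589 and 3258 RPKM at P0 (-7.54 ± 0.36).

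The middle age places these changes within the week, as a description. Among 295 entries higher by more than 2-fold and called under both scalings, the median share of the log2 change already present at P3 was 53.0%, and among 607 entries lower by more than 2-fold as deposited it was 51.8%. Gipr, the receptor of the gut hormone GIP, averaged 13.9 RPKM at P0, 0.499 at P3 and 0.153 at P7. Fbp2, the muscle fructose bisphosphatase, averaged 0.0825 RPKM at P0, 13.0 at P3 and 12.5 at P7, and Slc25a34 averaged 0.779 RPKM at P0, 21.4 at P3 and 23.4 at P7. The P3 level held 90.0% of the log2 change of Gipr, 102% of that of Fbp2 and 96.8% of that of Slc25a34. Pi16 (2.13 RPKM at P0, 4.45 at P3 and 25.9 at P7) and Klhdc8a (0.375 RPKM at P0, 1.42 at P3 and 9.61 at P7) had 25.6% and 27.5% of theirs. For 21 of the 295 entries the P3 mean exceeded the P7 mean. Angptl4, a secreted inhibitor of lipoprotein lipase, averaged 4.54 RPKM at P0, 57.5 at P3 and 37.3 at P7, and Scd4, a stearoyl-CoA desaturase first described in mouse heart, averaged 4.16 RPKM at P0, 58.7 at P3 and 35.3 at P7. In both genes the P7 level lies between a low P0 level and a higher P3 level.

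**Figure D2:**
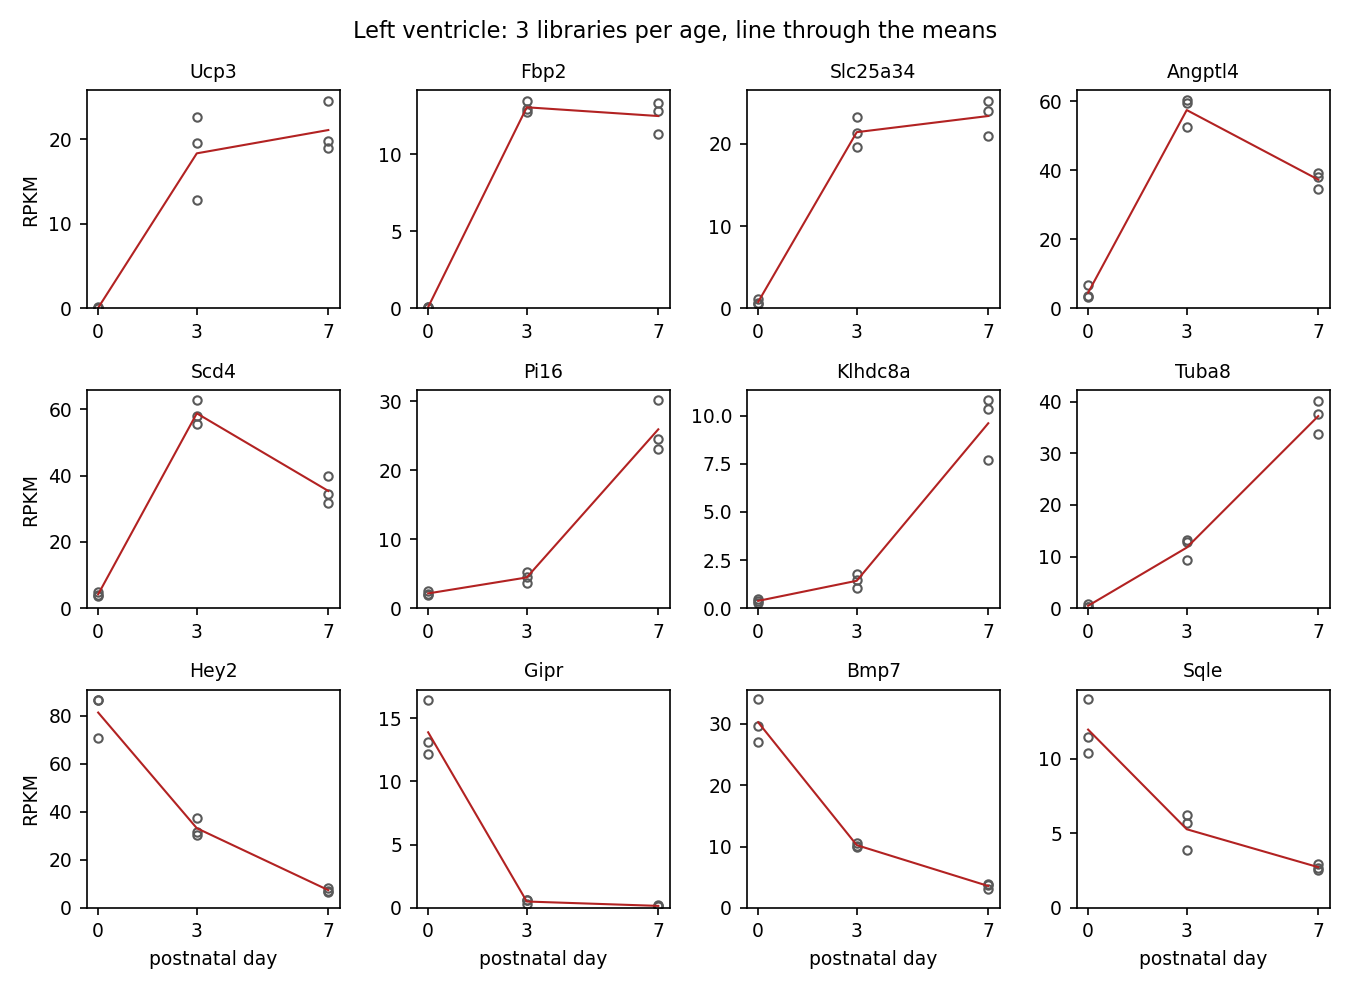
RPKM (y axis, from 0) of 12 named genes against postnatal day (x axis), with 3 LV libraries per age as circles and a line through the means. Angptl4 and Scd4 are highest at P3, Pi16 and Klhdc8a lie near their P0 level until P3, and Gipr is near its P7 level by P3.

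Genes of cholesterol synthesis and uptake were lower at P7. Of 26 tested members 0 rose and 24 fell (0 and 18 with upper-quartile scaling), with a median log2 change of -0.95, against 53.0% lower and -0.31 over all entries. Sqle, squalene epoxidase, the first oxygen-dependent step of the pathway, had 2.54, 2.95 and 2.69 RPKM at P7, against 11.4, 14.0 and 10.4 RPKM at P0 (log2 change -1.79 ± 0.17, adjusted p = 4.59e-08). Idi1, isopentenyl diphosphate isomerase (chr13:8885606-8892396), had 6.89, 5.74 and 5.50 RPKM at P7, against 24.3, 34.1 and 19.4 RPKM at P0 (log2 change -1.90 ± 0.17, adjusted p = 2.3e-08). Msmo1, the sterol C4-methyl oxidase (chr8:64718123-64733578), had 5.81, 5.25 and 6.40 RPKM at P7, against 17.2, 31.0 and 23.5 RPKM at P0 (log2 change -1.83 ± 0.16, adjusted p = 2.95e-08). In each of these 3 genes the lowest P0 library was at least 2 times the highest P7 library. Srebf2, the transcription factor that drives the pathway when sterol is short, averaged 11.4 ± 1.09 RPKM at P7 and 28.3 ± 1.91 at P0. The 2 members not called were Hsd17b7 (-0.14) and the cholesterol exporter Abca1 (adjusted p = 0.996), and upper-quartile scaling ended 6 more calls.

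The promoters of 3 of these genes are shown because the list moved together and a known promoter motif recurs in it. Each window runs from 250 bases before to 50 bases after the RefSeq transcript start, 5′ to 3′ on the gene's strand (RefSeq, GRCm38.p6). Capitals mark CCAAT, which binds the NF-Y complex, on either strand (ATTGG when read on the other one), and CACCCCAC, the core of the sterol response element of the LDL receptor gene.
Hmgcs1, chr13:119690101-119690400, plus strand: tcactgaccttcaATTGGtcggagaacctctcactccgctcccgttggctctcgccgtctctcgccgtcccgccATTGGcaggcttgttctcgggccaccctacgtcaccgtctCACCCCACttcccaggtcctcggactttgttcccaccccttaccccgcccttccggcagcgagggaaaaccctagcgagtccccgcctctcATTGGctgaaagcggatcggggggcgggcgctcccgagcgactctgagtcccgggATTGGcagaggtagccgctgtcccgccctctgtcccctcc
Idi1, chr13:8885356-8885655, plus strand: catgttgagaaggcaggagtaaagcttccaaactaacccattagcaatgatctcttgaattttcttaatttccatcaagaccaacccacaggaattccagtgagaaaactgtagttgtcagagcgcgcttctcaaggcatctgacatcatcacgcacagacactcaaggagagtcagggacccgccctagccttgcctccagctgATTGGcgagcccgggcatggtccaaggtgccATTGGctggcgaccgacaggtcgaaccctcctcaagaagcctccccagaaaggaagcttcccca
Msmo1, chr8:64733529-64733828, minus strand: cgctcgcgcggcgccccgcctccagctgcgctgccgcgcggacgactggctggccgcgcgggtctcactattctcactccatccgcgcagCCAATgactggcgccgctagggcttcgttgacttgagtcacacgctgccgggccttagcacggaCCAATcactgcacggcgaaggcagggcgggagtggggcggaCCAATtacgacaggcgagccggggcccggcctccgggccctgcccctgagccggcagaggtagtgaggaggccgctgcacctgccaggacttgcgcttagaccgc
The Hmgcs1 window holds ATTGG 4 times and CACCCCAC 1 time, the Idi1 window ATTGG 2 times and the Msmo1 window CCAAT 3 times. Of the 26 tested sterol genes 19 matched a promoter in the table, and 17 of the 19 hold CCAAT on either strand in at least 1 promoter, against 41.1% of all 27025 genes and 42.5% of the tested genes. Counted per window, 18 of 24 sterol promoters hold it, against 37.4% of all 32851 promoters. CACCCCAC occurs in 2 of the 19 genes (Acat2 and Hmgcs1), against 3.30% of all genes and 3.61% of the tested genes. These are matches of letters in a fixed window and not binding data.

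Fatty acid synthesis and desaturation held changes in both directions. Among the 18 tested 6 rose and 8 fell (6 and 6 with upper-quartile scaling), with a median log2 change of -0.28. Scd2, the stearoyl-CoA desaturase of brain and neonatal tissues, had 28.2, 27.1 and 29.5 RPKM at P7, against 145, 152 and 124 RPKM at P0 (log2 change -2.27 ± 0.11, adjusted p = 5.7e-12). Scd4 had 39.7, 31.8 and 34.5 RPKM at P7, against 3.51, 4.08 and 4.89 RPKM at P0 (log2 change 2.82 ± 0.12, adjusted p = 1.18e-12). The 2 desaturases exchanged rank, with Scd4 above Scd2 in every P7 library and far below it in every P0 library. Mlycd, malonyl-CoA decarboxylase, which removes the inhibitor of fatty acid entry into mitochondria, had 36.0, 32.0 and 38.3 RPKM at P7, against 11.0, 11.0 and 13.6 RPKM at P0 (log2 change 1.503 ± 0.11, adjusted p = 3.58e-09). Acss1, the mitochondrial acetyl-CoA synthetase, had 26.3, 21.4 and 22.0 RPKM at P7, against 7.09, 6.95 and 8.67 RPKM at P0 (log2 change 1.499 ± 0.20, adjusted p = 4.49e-06). Fasn, fatty acid synthase, averaged 6.18 ± 0.713 RPKM at P7 and 16.2 ± 2.16 at P0 (-1.26 ± 0.14), and Acaca, the cytosolic acetyl-CoA carboxylase, averaged 1.97 ± 0.376 RPKM at P7 and 5.38 ± 0.656 at P0 (-1.11 ± 0.14).

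Serine, glycine and folate one-carbon genes, which supply carbon for nucleotides and methylation, were lower as a list. In this list of 19 tested genes 0 rose and 18 fell (0 and 17 with upper-quartile scaling), with a median log2 change of -0.78. Phgdh, the first enzyme of serine synthesis (chr3:98313171-98339969), had 2.18, 1.30 and 2.22 RPKM at P7, against 14.4, 8.24 and 11.7 RPKM at P0 (log2 change -2.08 ± 0.23, adjusted p = 5.27e-07). Mthfd2, the mitochondrial folate dehydrogenase of embryonic and dividing cells, had 2.13, 2.09 and 2.03 RPKM at P7, against 7.28, 6.92 and 6.44 RPKM at P0 (log2 change -1.35 ± 0.17, adjusted p = 1.37e-06). Shmt1, cytosolic serine hydroxymethyltransferase, had 6.57, 5.54 and 7.80 RPKM at P7, against 17.3, 18.7 and 17.6 RPKM at P0 (log2 change -1.31 ± 0.13, adjusted p = 1.23e-07). None of these groups overlapped, and Aldh1l2, the mitochondrial formyl-folate dehydrogenase, averaged 2.73 ± 0.572 RPKM at P7 and 8.07 ± 1.90 at P0 (-1.27 ± 0.16). The 1 member not called was Mthfd2l (-0.23, adjusted p = 0.0565).

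Glycogen genes were lower or not called. The 21 tested members held 0 that rose and 14 that fell (3 and 10 with upper-quartile scaling), with a median log2 change of -0.50. Gyg, glycogenin, the primer of the polymer (chr3:20122083-20155117), had 92.9, 85.2 and 90.0 RPKM at P7, against 432, 334 and 405 RPKM at P0 (log2 change -2.11 ± 0.098, adjusted p = 3.66e-12). Pygl, the liver-type phosphorylase, had 7.03, 5.39 and 6.58 RPKM at P7, against 31.9, 33.9 and 36.0 RPKM at P0 (log2 change -2.26 ± 0.11, adjusted p = 4.65e-12), while the muscle phosphorylase Pygm averaged 180.3 ± 17.05 RPKM at P7 and 198 ± 17.6 at P0 and was not called (adjusted p = 0.231). Stbd1, which tethers glycogen to membranes, had 7.35, 7.66 and 10.02 RPKM at P7, against 31.6, 42.6 and 36.9 RPKM at P0 (log2 change -2.03 ± 0.15, adjusted p = 1.84e-09). Ppp1r3b, a glycogen-targeting subunit of protein phosphatase 1, had 3.79, 3.09 and 3.66 RPKM at P7, against 18.1, 13.6 and 17.5 RPKM at P0 (log2 change -1.94 ± 0.15, adjusted p = 3.21e-09). Synthesis enzymes stand beside phosphorylase here: Gys1, the muscle glycogen synthase, averaged 27.1 ± 3.35 RPKM at P7 and 82.7 ± 5.40 at P0 (-1.58 ± 0.10), and the branching enzyme Gbe1 15.6 ± 1.04 RPKM at P7 and 39.3 ± 2.47 at P0 (-1.28 ± 0.11).

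Fatty acid supply genes were higher. Calls among the 31 tested members were 19 higher and 7 lower (21 and 4 with upper-quartile scaling), with a median log2 change of 0.79. Among carriers, Fabp3, the heart-type fatty acid binding protein (chr4:130308738-130315463), had 5828, 5972 and 5824 RPKM at P7, against 1451, 1939.6 and 1689 RPKM at P0 (log2 change 1.80 ± 0.14, adjusted p = 3.5e-09). Cd36, the sarcolemmal and endothelial fatty acid translocase, had 51.9, 51.3 and 40.5 RPKM at P7, against 12.9, 15.4 and 12.8 RPKM at P0 in 1 of its 5 entries (log2 change 1.73 ± 0.24, adjusted p = 6.37e-06). On the capillary side, Gpihbp1, which carries lipoprotein lipase across the endothelium, had 132, 136 and 152 RPKM at P7, against 44.1, 53.2 and 47.2 RPKM at P0 (log2 change 1.52 ± 0.12, adjusted p = 9.57e-09), and the lipase gene Lpl averaged 272 ± 38.3 RPKM at P7 and 144 ± 21.7 at P0 (0.92 ± 0.15). All 3 P7 libraries were above all P0 libraries for each. Storage genes moved both ways: the lipid droplet genes Plin4 (11.7 ± 1.18 RPKM at P7 and 5.48 ± 1.87 at P0, 1.01 ± 0.26) and Cidea (28.4 ± 0.303 RPKM at P7 and 10.1 ± 0.392 at P0, 1.41 ± 0.11) and the triglyceride synthesis genes Dgat2 (28.6 ± 3.95 RPKM at P7 and 12.6 ± 1.81 at P0, 1.12 ± 0.14) and Gpam (21.8 ± 2.63 RPKM at P7 and 7.24 ± 0.422 at P0, 1.46 ± 0.11) rose. G0s2, an inhibitor of adipose triglyceride lipase, had 53.8, 42.2 and 38.6 RPKM at P7, against 95.1, 92.6 and 89.8 RPKM at P0 (log2 change -1.04 ± 0.10, adjusted p = 1.28e-07). Plin2, a lipid droplet coat protein, did not pass, at 32.3 ± 2.26 RPKM at P7 and 32.2 ± 1.64 at P0 (adjusted p = 0.995).

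Ketone body and branched-chain amino acid oxidation genes rose about as often as all entries did (11.8%). Of 26 tested members 3 rose and 15 fell (5 and 10 with upper-quartile scaling), with a median log2 change of -0.38. As deposited 57.7% of the list fell, against 53.0% of all entries. Dbt, the acyltransferase of the branched-chain ketoacid dehydrogenase, had 8.57, 8.60 and 7.60 RPKM at P7, against 24.7, 24.0 and 22.8 RPKM at P0 (log2 change -1.42 ± 0.099, adjusted p = 1.02e-09). Bckdhb, the beta subunit of its first component, had 13.6, 14.8 and 13.3 RPKM at P7, against 26.4, 33.3 and 28.1 RPKM at P0 (log2 change -1.02 ± 0.13, adjusted p = 2.81e-06). Ivd, isovaleryl-CoA dehydrogenase, had 26.5, 24.1 and 29.1 RPKM at P7, against 54.0, 53.5 and 55.6 RPKM at P0 (log2 change -1.01 ± 0.11, adjusted p = 2.15e-07). Every P7 library lay below every P0 library in these genes. Oxct1, the first enzyme of ketone use in heart, averaged 207 RPKM at P0, 107 at P3 and 137 at P7 in age order (-0.59 ± 0.13). Its call was lost after upper-quartile scaling, at an adjusted p of 0.176.

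Many enzymes, pumps and contractile proteins exist as a muscle or adult form beside a broadly expressed or fetal form, and 37 of 40 listed pairs of such genes had both members tested. The muscle or adult form rose in 16 pairs and fell in 12, with a median log2 change of 0.12. Its counterpart rose in 5 and fell in 31, with a median of -0.86. In 14 pairs the muscle or adult form rose while the counterpart fell, 12 of them under both scalings, and in 2 pairs the calls ran the other way. In 24 pairs each gene has a single entry, so that reads cannot be divided within the gene; 8 of these 24 had the muscle or adult form called higher and the other lower, 7 under both scalings, and 1 the reverse.

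Ribosomal protein L3 has a striated-muscle copy, Rpl3l, which had 8.16, 4.65 and 5.74 RPKM at P7, against 0.122, 0.399 and 0.0194 RPKM at P0 in 1 of 2 entries (log2 change 2.59 ± 0.16, adjusted p = 2.86e-10). The general copy, Rpl3, had 399.6, 370.4 and 379 RPKM at P7, against 648, 622 and 595 RPKM at P0 (log2 change -0.70 ± 0.11, adjusted p = 1.7e-05). Rpl3l stayed far below Rpl3 in every library. Among cytochrome oxidase subunits, Cox6a2, the heart and muscle form, had 3316, 3587 and 3427 RPKM at P7, against 1896, 2734 and 1661 RPKM at P0 (log2 change 0.75 ± 0.18, adjusted p = 0.00124). Cox6a1, the liver form, had 615, 526 and 554 RPKM at P7, against 1391, 1294 and 1163 RPKM at P0 (log2 change -1.18 ± 0.11, adjusted p = 3.84e-08). With LV P7 replicate 1 alone the call of Cox6a2 was lost by a narrow margin (adjusted p = 0.05001). Cox8b, the muscle form of subunit 8, had 1152, 1137 and 1237 RPKM at P7, against 526, 714 and 643 RPKM at P0 (log2 change 0.91 ± 0.13, adjusted p = 5.28e-06). Cox8a had 531, 413 and 487 RPKM at P7, against 959.6, 947 and 776 RPKM at P0 (log2 change -0.91 ± 0.10, adjusted p = 7.1e-07). In Cox8b and Cox8a the order of the pair reversed: Cox8b was above Cox8a in every P7 library and below it in every P0 library.

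Pdk4, the kinase that blocks pyruvate oxidation in fasted and fat-fed muscle, had 77.5, 87.0 and 84.4 RPKM at P7, against 13.4, 9.33 and 14.4 RPKM at P0 (log2 change 2.67 ± 0.16, adjusted p = 1.14e-10). Its relative Pdk1, known as a hypoxia target, had 30.5, 32.1 and 33.0 RPKM at P7, against 77.6, 81.7 and 84.3 RPKM at P0 (log2 change -1.32 ± 0.085, adjusted p = 3.34e-10). Here too the order reversed in every library. Acsl1, the main acyl-CoA synthetase of heart, averaged 188 ± 15.3 RPKM at P7 and 99.1 ± 14.2 at P0 (0.92 ± 0.13), and Acsl3 averaged 0.223 ± 0.0728 RPKM at P7 and 1.72 ± 0.273 at P0 in 1 of 3 entries (-1.15 ± 0.11). Gpd1, the cytosolic glycerol phosphate dehydrogenase, had 17.4, 11.5 and 12.8 RPKM at P7, against 1.33, 1.63 and 1.33 RPKM at P0 (log2 change 2.60 ± 0.15, adjusted p = 1.07e-10), while its relative Gpd1l averaged 4.36 ± 0.849 RPKM at P7 and 3.65 ± 0.163 at P0 and was called, as higher, only after upper-quartile scaling. Eef1a2, the elongation factor of muscle and neurons, averaged 243 ± 44.3 RPKM at P7 and 198 ± 25.7 at P0, at an adjusted p of 0.0505, and Eef1a1 averaged 3026 ± 108 RPKM at P7 and 4741 ± 319.5 at P0 (-0.65 ± 0.11). Upper-quartile scaling changed both of these calls, to adjusted p = 0.000445 for Eef1a2 and 0.0681 for Eef1a1.

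Pairs in which the muscle form did not rise against its counterpart included those of AMP-activated protein kinase, the sodium pump's beta subunit, lactate transport, troponin T, actin and cytochrome oxidase subunit 4. Prkaa2, the muscle alpha2 catalytic subunit of the kinase, had 9.05, 7.62 and 7.65 RPKM at P7, against 23.8, 20.9 and 25.4 RPKM at P0 (log2 change -1.42 ± 0.12, adjusted p = 1.69e-08), and Prkaa1 averaged 7.81 ± 0.260 RPKM at P7 and 11.9 ± 0.937 at P0 (-0.55 ± 0.11). Prkab2 averaged 4.88 ± 0.337 RPKM at P7 and 8.20 ± 1.26 at P0 (-0.64 ± 0.13) and Prkab1 22.5 ± 2.48 RPKM at P7 and 17.01 ± 2.16 at P0 (0.39 ± 0.11), a pair in which the general form rose and the muscle form fell. Atp1b1, the main form of that beta subunit, averaged 108 ± 7.29 RPKM at P7 and 189 ± 9.43 at P0 (-0.80 ± 0.091). Cox4i2, the oxygen-sensitive lung form of subunit 4, had 20.4, 15.9 and 18.4 RPKM at P7, against 10.5, 8.48 and 10.6 RPKM at P0 (log2 change 0.83 ± 0.12, adjusted p = 1.4e-05), while Cox4i1 averaged 1473 ± 136 RPKM at P7 and 1338 ± 71.4 at P0 (0.14, adjusted p = 0.245). For Acta1, Tnnt2 and Slc16a3 the genes have 2, 9 and 3 entries, and the tested Acta1 entry averaged only 1.55 ± 0.214 RPKM at P7 and 0.901 ± 0.272 at P0, with its call lost with LV P7 replicate 1 alone (adjusted p = 0.0632), so these pairs describe entries and not genes.

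**Figure D3:**
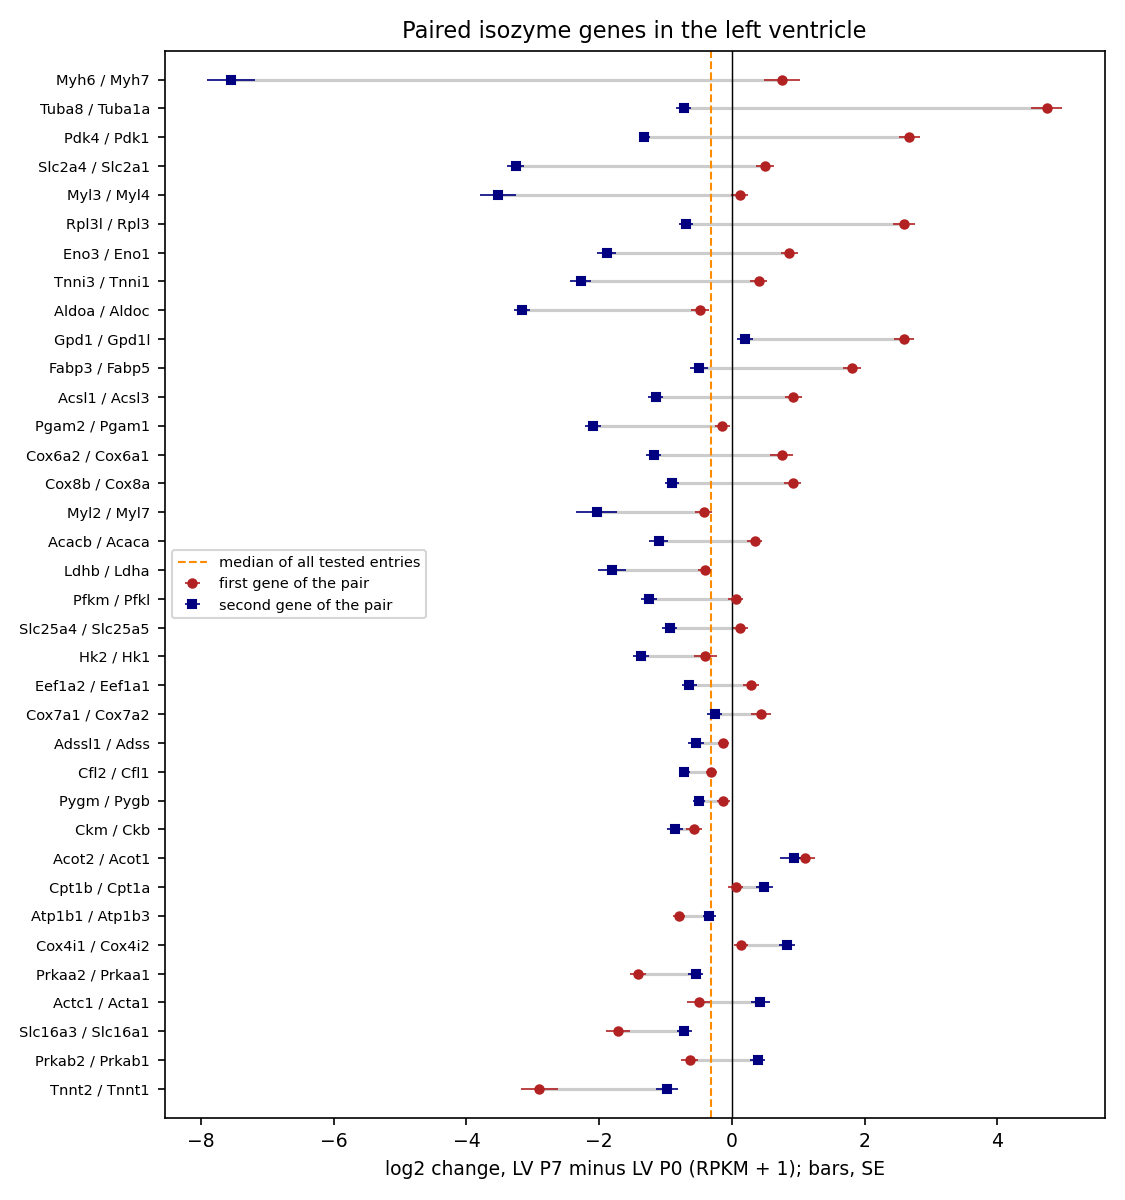
Log2 change from P7 minus P0 (x axis) of both genes in all but 1 of the 37 tested pairs (y axis), with the muscle or adult form as circles, its counterpart as squares and bars of 1 SE. Circles lie to the right of squares in the upper rows, from Myh6 / Myh7 and Tuba8 / Tuba1a downward, and to the left in the lowest rows, from Cpt1b / Cpt1a to Tnnt2 / Tnnt1; the dashed line is the median of all entries.

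Every capillary marker rose at P7. Among the 12 tested 12 rose and 0 fell (12 and 0 with upper-quartile scaling), with a median log2 change of 1.32. Their summed level was 1980.5 to 2177 RPKM at P7 and 634 to 904 at P0, most of it Fabp4. Beside Car4 and Gpihbp1, Rgcc, a cell-cycle regulator of endothelium, had 35.1, 29.3 and 31.9 RPKM at P7, against 9.62, 7.87 and 8.83 RPKM at P0 (log2 change 1.76 ± 0.15, adjusted p = 1.41e-08), and Tcf15, a transcription factor of heart and muscle capillaries, averaged 10.4 ± 3.16 RPKM at P7 and 3.40 ± 0.457 at P0 (1.33 ± 0.18). Aqp1, the water channel of capillary endothelium, averaged 67.1 ± 9.61 RPKM at P7 and 34.8 ± 0.254 at P0 (0.92 ± 0.11), and the homeobox gene Meox2 averaged 25.3 ± 0.656 RPKM at P7 and 12.0 ± 0.888 at P0 (1.02 ± 0.13). With LV P7 replicate 1 alone, 11 of 12 were called higher. In tissue RNA, more cells of a type and more RNA per cell cannot be told apart, and several of these genes (Cd36, Fabp4, Gpihbp1) are counted among the fatty acid supply genes too.

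Other vessel markers moved less together. Among general endothelial markers 7 of 11 rose and 0 fell (10 and 0 with upper-quartile scaling), with a summed level of 471 to 535 RPKM at P7 and 258 to 288 at P0, and none was at 0. Robo4, an endothelial guidance receptor, averaged 21.2 ± 3.09 RPKM at P7 and 9.61 ± 0.643 at P0 (1.06 ± 0.11). Among arterial and endocardial markers 3 of 14 rose and 4 fell (8 and 2 with upper-quartile scaling), and among lymphatic markers 0 of 8 rose and 4 fell (2 and 2 with upper-quartile scaling). The 50% of lymphatic markers that fell as deposited is near the 53.0% of all entries. Plvap, the diaphragm protein of fenestrated and immature endothelium (chr8:71497753-71511806), had 12.2, 13.2 and 13.4 RPKM at P7, against 38.5, 32.0 and 35.4 RPKM at P0 (log2 change -1.38 ± 0.16, adjusted p = 8.21e-07). Lyve1, the hyaluronan receptor of lymphatic endothelium and of some macrophages, had 2.90, 4.86 and 4.74 RPKM at P7, against 12.5, 11.1 and 13.6 RPKM at P0 (log2 change -1.39 ± 0.18, adjusted p = 3.03e-06), with no overlap. Stmn2, a stathmin that binds tubulin, averaged 5.73 ± 0.610 RPKM at P7 and 2.07 ± 0.564 at P0 (1.14 ± 0.14) and Fbln5, an elastic fibre protein, 6.84 ± 0.394 RPKM at P7 and 3.70 ± 0.806 at P0 (0.75 ± 0.17). Of the smooth muscle and pericyte markers Kcnj8, a potassium channel subunit of pericytes, averaged 29.9 ± 4.31 RPKM at P7 and 12.9 ± 1.37 at P0 (1.15 ± 0.10), and Acta2, smooth muscle actin, which immature cardiomyocytes share, averaged 228 ± 23.0 RPKM at P7 and 632 ± 48.3 at P0 (-1.47 ± 0.18).

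Fibroblast markers rose in part. In this list of 11 tested genes 7 rose and 0 fell (10 and 0 with upper-quartile scaling), with a median log2 change of 0.80. Their summed level was 1398 to 1526 RPKM at P7 and 776 to 1003 at P0, with none at 0. Dpt, dermatopontin, had 179, 157 and 158 RPKM at P7, against 68.4, 78.4 and 73.7 RPKM at P0 (log2 change 1.15 ± 0.10, adjusted p = 2.3e-08). Lum, lumican, had 164, 144 and 148 RPKM at P7, against 60.8, 60.3 and 70.0 RPKM at P0 (log2 change 1.24 ± 0.12, adjusted p = 8.34e-08), with all P7 libraries above all P0 libraries. Tcf21 (-0.024), Col1a1 (-0.012), Postn (0.12) and Col1a2 (0.23) did not pass. Macrophage markers rose in 8 of 10 and fell in 0 (9 and 0 with upper-quartile scaling), with a summed level of 126 to 142 RPKM at P7 and 76.0 to 96.4 at P0. C1qa, the complement subunit made by tissue macrophages, had 18.8, 12.9 and 16.5 RPKM at P7, against 8.10, 8.76 and 10.5 RPKM at P0 (log2 change 0.75 ± 0.15, adjusted p = 0.000298). Among mast cell, granulocyte and lymphocyte markers 3 of 9 rose and 3 fell (3 and 1 with upper-quartile scaling): Mcpt4, a connective tissue mast cell protease, had 4.29, 3.16 and 4.58 RPKM at P7, against 0.590, 0.696 and 0.329 RPKM at P0 (log2 change 1.70 ± 0.18, adjusted p = 2.78e-07), whereas Cpa3, carboxypeptidase of mast cells, averaged 4.51 ± 0.320 RPKM at P7 and 9.16 ± 3.41 at P0 (-0.83 ± 0.19; adjusted p = 0.0505 with LV P7 replicate 1 alone). Cd79a, of the B cell receptor, averaged 1.07 ± 0.315 RPKM at P7 and 0.124 ± 0.0916 at P0 (0.87 ± 0.12).

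Of epicardial and atrial markers 54.5% and 58.3% fell as deposited, near the 53.0% of all entries. Their median log2 changes, -0.53 and -0.76, were below the median of all entries. Summed levels of both lists were below that of the cardiomyocyte markers. Epicardial markers fell in 6 of 11 and rose in 1 (5 and 2 with upper-quartile scaling), with a summed level of 87.7 to 102 RPKM at P7 and 86.1 to 135 at P0. Upk1b, a uroplakin of mesothelium, had 0.667, 1.23 and 1.51 RPKM at P7, against 6.44, 2.56 and 6.43 RPKM at P0 (log2 change -1.47 ± 0.29, adjusted p = 0.000256). Aldh1a2, which makes retinoic acid in epicardium and fibroblasts, was the 1 that rose, at 32.7 ± 1.86 RPKM at P7 and 14.0 ± 0.176 at P0 (1.17 ± 0.11). Atrial markers fell in 7 of 12 and rose in 2 (7 and 4 with upper-quartile scaling), with a summed level of 366 to 492 RPKM at P7 and 1284 to 1622 at P0. Myl7, the atrial regulatory light chain, was at 53.4, 57.7 and 66.7 RPKM at P7, against 247, 222 and 269 at P0. Bmp10 (-4.28 ± 0.23), Myl4 (-3.52 ± 0.27) and Nppa (-1.90 ± 0.29) of this list fell as well, while Kcna5 (0.64 ± 0.10) and Nr2f1 (0.84 ± 0.13) rose. The embryonic globins Hba-x and Hbb-y averaged 2.56 and 1.82 RPKM at P0. Hba-x is listed at 0 in all P7 libraries, and the fall of Hbb-y was lost with LV P7 replicate 1 alone (adjusted p = 0.0793). Adult Hba-a1 averaged 759 ± 124 RPKM at P7 and 765 ± 149 at P0 (adjusted p = 0.979), and the summed level of red cell markers was 1849 to 2412 RPKM at P7 and 1963 to 3044 at P0. Of 4 Schwann cell and neuron markers 2 rose and 2 fell (2 and 1 with upper-quartile scaling), and of 4 markers of lung, liver, thymus, skeletal muscle and brown fat 1 rose (Cidea) and 3 fell (Tnni2, Mylpf and Apoa2, of which Apoa2 not after upper-quartile scaling). The 4 Y-linked genes tested did not pass, between -0.36 and 0.22. The part of these markers in other results was not tested.

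**Figure D4:**
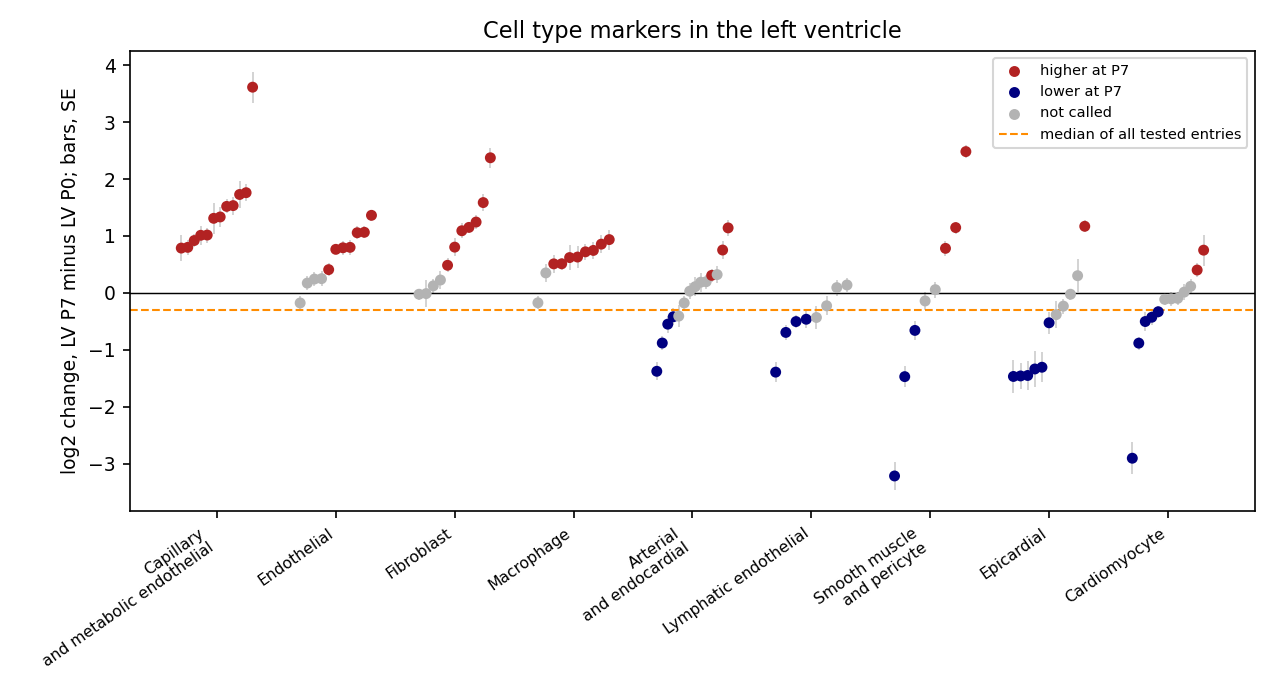
Log2 change from P7 minus P0 (y axis) of the tested members of 9 marker lists (x axis), coloured by call, with bars of 1 SE; the dashed line is the median of all entries. All 12 capillary markers lie above 0, while the arterial, lymphatic, smooth muscle and epicardial lists hold calls in both directions or mostly lower.

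Scaffold genes of the sarcomere divided. The 34 tested members held 11 that rose and 14 that fell (13 and 10 with upper-quartile scaling), with a median log2 change of -0.19. Ankrd23, an ankyrin repeat protein of the titin I-band (chr1:36530193-36536556), had 48.2, 59.3 and 67.2 RPKM at P7, against 7.39, 12.4 and 9.51 RPKM at P0 (log2 change 2.47 ± 0.21, adjusted p = 1.84e-08). Myom2, of the adult M-band, had 168, 191 and 205 RPKM at P7, against 29.1, 58.8 and 47.4 RPKM at P0 (2.09 ± 0.27). Myoz1, a calcineurin-binding Z-disc protein of fast fibres, had 1.52, 1.26 and 1.76 RPKM at P7, against 7.87, 6.31 and 7.67 RPKM at P0 (log2 change -1.72 ± 0.18, adjusted p = 1.89e-07), while its cardiac relative Myoz2 averaged 602 ± 25.5 RPKM at P7 and 348 ± 60.9 at P0 (0.80 ± 0.12). Flnc, filamin C, had 23.0, 20.9 and 25.6 RPKM at P7, against 70.8, 52.4 and 60.2 RPKM at P0 (log2 change -1.36 ± 0.14, adjusted p = 2.71e-07). Each of these 5 genes held all P7 libraries on 1 side of all P0 libraries.

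Among genes of calcium release and uptake, the release channel itself did not pass the test. Calls among the 25 tested members were 5 higher and 10 lower (9 and 4 with upper-quartile scaling), with a median log2 change of -0.12. Ryr2, the release channel, averaged 40.3 ± 4.27 RPKM at P7 and 39.7 ± 1.15 at P0 (0.014, adjusted p = 0.934), and the tested Pln entry, for phospholamban, 6.78 ± 0.683 RPKM at P7 and 7.30 ± 0.520 at P0 (-0.096, adjusted p = 0.462). Casq1, the skeletal calsequestrin, had 16.2, 11.7 and 12.9 RPKM at P7, against 53.0, 67.4 and 42.4 RPKM at P0 (log2 change -1.91 ± 0.17, adjusted p = 2.3e-08), while the cardiac Casq2 averaged 513 ± 43.8 RPKM at P7 and 664 ± 56.5 at P0 (-0.37 ± 0.093; not called after upper-quartile scaling). S100a1, a calcium sensor of the reticulum, had 995, 1047 and 924 RPKM at P7, against 548, 659.6 and 472 RPKM at P0 (log2 change 0.83 ± 0.15, adjusted p = 7.55e-05). Hrc, the histidine-rich luminal protein, had 133, 114 and 118 RPKM at P7, against 68.5, 78.3 and 68.6 RPKM at P0 (log2 change 0.75 ± 0.12, adjusted p = 2.09e-05). S100a1 and Hrc were above every P0 library in each P7 library. Atp2a2, the calcium pump, averaged 96.0 ± 7.08 RPKM at P7 and 63.4 ± 9.04 at P0 (0.60 ± 0.12).

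Single intercalated disc genes moved in both directions. Of 25 tested members 2 rose and 16 fell (3 and 9 with upper-quartile scaling), with a median log2 change of -0.34. As deposited 8% of the list rose and 64% fell, against 11.8% and 53.0% of all entries. Bves, also called Popdc1, a cAMP-binding membrane protein (chr10:45335735-45372484), had 40.6, 35.2 and 38.8 RPKM at P7, against 167, 159 and 167 RPKM at P0 (log2 change -2.08 ± 0.084, adjusted p = 6.22e-13). Its relative Popdc3 had 12.2, 11.0 and 10.6 RPKM at P7, against 33.7, 34.3 and 31.4 RPKM at P0 (log2 change -1.48 ± 0.098, adjusted p = 5.35e-10). Itga7, the adult laminin-binding integrin chain (chr10:128933421-128958286), had 23.9, 17.4 and 21.1 RPKM at P7, against 5.05, 5.41 and 4.01 RPKM at P0 (log2 change 1.90 ± 0.16, adjusted p = 1.31e-08). Each of these groups was separate, with Itga7 about as far up as Popdc3 and Bves were down. Gja1, connexin 43, averaged 251 ± 22.2 RPKM at P7 and 309.6 ± 16.6 at P0 (-0.30 ± 0.11) and Cdh2, N-cadherin, 69.2 ± 8.40 RPKM at P7 and 129 ± 14.3 at P0 (-0.89 ± 0.11); upper-quartile scaling ended the call of Gja1. In the dystrophin complex 3 of 21 rose and 11 fell (5 and 3 with upper-quartile scaling). As deposited these were 14.3% and 52.4% of the list, near the 11.8% and 53.0% of all entries. Sgca, alpha-sarcoglycan, had 46.4, 37.2 and 42.2 RPKM at P7, against 20.2, 24.5 and 19.2 RPKM at P0 (log2 change 0.95 ± 0.11, adjusted p = 5.6e-07), and Lama2, the laminin chain bound through dystroglycan, averaged 26.8 ± 1.90 RPKM at P7 and 15.2 ± 0.662 at P0 (0.78 ± 0.14).

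Caveola genes rose in 6 of 12 and fell in 1 (9 and 0 with upper-quartile scaling), with a median of 0.23. Cav1 (1 of 2 entries) had 36.4, 43.9 and 45.2 RPKM at P7, against 21.8, 25.4 and 17.8 RPKM at P0 (log2 change 0.93 ± 0.13, adjusted p = 5.71e-06). Cav2 had 42.2, 41.8 and 41.1 RPKM at P7, against 17.7, 23.2 and 24.8 RPKM at P0 (log2 change 0.91 ± 0.098, adjusted p = 3.03e-07). Both are caveolins of endothelium and other non-muscle cells, and Ehd2, which holds caveolae at the membrane, averaged 87.4 ± 6.89 RPKM at P7 and 50.7 ± 5.74 at P0 (0.78 ± 0.091). The muscle caveolin Cav3 averaged 87.5 ± 8.97 RPKM at P7 and 124 ± 17.7 at P0 (-0.50 ± 0.10) and was not called after upper-quartile scaling. Cavin4, the muscle cavin, averaged 47.3 ± 4.68 RPKM at P7 and 33.5 ± 8.22 at P0 (0.51 ± 0.19), a call lost in 4 of the 6 fits that left out 1 library (adjusted p up to 0.162) and with LV P7 replicate 1 alone (0.347).

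Myoglobin and cytoglobin rose within an iron and oxygen list that moved both ways. Among the 32 tested 8 rose and 11 fell (16 and 3 with upper-quartile scaling), with a median log2 change of -0.13. Mb, myoglobin, had 703, 711 and 591 RPKM at P7, against 161, 256 and 154 RPKM at P0 in 1 of 3 entries (log2 change 1.84 ± 0.16, adjusted p = 1.99e-08). Cygb, cytoglobin, a globin of fibroblasts and pericytes, had 13.7, 12.2 and 13.4 RPKM at P7, against 3.48, 2.87 and 2.86 RPKM at P0 (log2 change 1.80 ± 0.11, adjusted p = 1.1e-10). Hjv, hemojuvelin, a BMP co-receptor of muscle and liver (chr3:96525163-96529216), had 58.7, 38.3 and 42.8 RPKM at P7, against 8.39, 14.6 and 9.30 RPKM at P0 (log2 change 2.03 ± 0.19, adjusted p = 3.89e-08). The transferrin receptor Tfrc averaged 72.6 ± 12.1 RPKM at P7 and 40.3 ± 17.99 at P0 (0.90 ± 0.24), and Ftl1, the ferritin light chain, 222 ± 27.4 RPKM at P7 and 386 ± 72.3 at P0 (-0.79 ± 0.15). Mb, Cygb and Hjv were higher in all P7 libraries than in any P0 library.

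Antioxidant genes held large changes in both directions. In this list of 38 tested genes 8 rose and 22 fell (12 and 9 with upper-quartile scaling), with a median log2 change of -0.31. As deposited 21.1% of the list rose and 57.9% fell, against 11.8% and 53.0% of all entries. Sod3, the extracellular superoxide dismutase (chr5:52363804-52369738), had 16.2, 12.4 and 16.2 RPKM at P7, against 1.37, 2.15 and 1.14 RPKM at P0 (log2 change 2.65 ± 0.15, adjusted p = 6.39e-11), whereas the cytosolic Sod1 (218 ± 16.8 RPKM at P7 and 215 ± 12.8 at P0) and mitochondrial Sod2 (114 ± 7.54 RPKM at P7 and 108 ± 7.67 at P0) did not pass. The metallothioneins Mt1 and Mt2, metal-binding peptides induced by stress and glucocorticoid, were lower: Mt1 had 13.1, 14.6 and 15.9 RPKM at P7, against 42.1, 46.2 and 56.7 RPKM at P0 (log2 change -1.66 ± 0.16, adjusted p = 7.22e-08). Mt2 had 13.7, 20.4 and 19.0 RPKM at P7, against 72.5, 73.4 and 82.7 RPKM at P0 (log2 change -2.07 ± 0.19, adjusted p = 3.34e-08). Mgst1, a microsomal glutathione transferase, had 7.69, 6.16 and 6.18 RPKM at P7, against 33.8, 23.0 and 33.1 RPKM at P0 (log2 change -1.997 ± 0.16, adjusted p = 6.16e-09). Catalase, Cat, averaged 79.4 ± 6.42 RPKM at P7 and 53.6 ± 5.24 at P0 (0.56 ± 0.094).

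Most chaperones were lower, and a pair of small heat shock proteins was higher. The 29 tested members held 4 that rose and 21 that fell (5 and 16 with upper-quartile scaling), with a median log2 change of -0.61. Hspb1, a small heat shock protein, had 119, 99.9 and 130.3 RPKM at P7, against 351, 322 and 350.3 RPKM at P0 (log2 change -1.55 ± 0.098, adjusted p = 2.71e-10). Hsp90aa1, the inducible HSP90, had 111, 118 and 119 RPKM at P7, against 316, 303 and 330.2 RPKM at P0 (log2 change -1.44 ± 0.10, adjusted p = 1.3e-09). Cct3, of the ring that folds actin and tubulin, had 53.3, 47.7 and 54.3 RPKM at P7, against 114, 116 and 117 RPKM at P0 (log2 change -1.15 ± 0.095, adjusted p = 9.85e-09). Fkbp5, an HSP90 co-chaperone and glucocorticoid target, had 3.10, 3.01 and 3.44 RPKM at P7, against 9.91, 10.2 and 8.46 RPKM at P0 (log2 change -1.33 ± 0.11, adjusted p = 9.39e-09). None of these overlapped. Hspb6 (379.7 ± 48.9 RPKM at P7 and 186 ± 20.7 at P0, 1.03 ± 0.11) and Hspb8 (78.6 ± 9.66 RPKM at P7 and 41.6 ± 2.25 at P0, 0.90 ± 0.095) rose, both small heat shock proteins of muscle. ER stress and amino acid response genes rose in 1 of 30 and fell in 12 (6 and 7 with upper-quartile scaling), with the ER chaperone Hsp90b1 at 129 ± 12.1 RPKM at P7 and 243 ± 4.97 at P0 (-0.91 ± 0.11) and asparagine synthetase Asns at 3.41 ± 0.553 RPKM at P7 and 7.57 ± 0.702 at P0 (-0.96 ± 0.12).

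Genes of mitochondrial dynamics, mitophagy and DNA upkeep were lower in 63.2% and higher in 2.63% as deposited, against 53.0% and 11.8% of all entries. Calls among the 38 tested members were 1 higher and 24 lower (6 and 8 with upper-quartile scaling), with a median log2 change of -0.31. Bnip3, a hypoxia-induced mitophagy receptor (chr7:138890836-138909506), had 35.8, 44.0 and 44.5 RPKM at P7, against 100.1, 116 and 172 RPKM at P0 (log2 change -1.59 ± 0.17, adjusted p = 3.49e-07). Twnk, the helicase of mitochondrial DNA, had 5.13, 3.84 and 4.85 RPKM at P7, against 10.7, 9.60 and 11.5 RPKM at P0 (log2 change -1.06 ± 0.12, adjusted p = 5.14e-07). Pink1, the mitophagy kinase, was the 1 member that rose as deposited, at 92.3 ± 15.99 RPKM at P7 and 57.0 ± 4.09 at P0 (0.68 ± 0.12). Protein import genes rose in 1 of 32 and fell in 25 (3 and 8 with upper-quartile scaling). As deposited 78.1% of this list fell, against 53.0% of all entries. The matrix chaperonins Hspd1 (106 ± 8.40 RPKM at P7 and 225 ± 15.3 at P0, -1.07 ± 0.11) and Hspe1 (85.7 ± 8.13 RPKM at P7 and 185 ± 25.7 at P0, -1.10 ± 0.11) fell under both scalings.

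Autophagy and lysosome genes were mostly not called as deposited. Of 33 tested members 7 rose and 5 fell (17 and 1 with upper-quartile scaling), with a median log2 change of -0.084. Map1lc3a, an LC3 protein of the autophagosome membrane, had 236, 214 and 214 RPKM at P7, against 102, 122 and 67.8 RPKM at P0 (log2 change 1.22 ± 0.21, adjusted p = 6.68e-05), and Trp53inp2, an autophagy cofactor of muscle, averaged 204 ± 22.5 RPKM at P7 and 128 ± 7.06 at P0 (0.66 ± 0.097). Muscle ubiquitin ligases moved both ways. Among the 27 tested 9 rose and 9 fell (11 and 3 with upper-quartile scaling), with a median log2 change of -0.20. Trim54 (MURF3) had 9.66, 8.42 and 9.85 RPKM at P7, against 1.46, 1.29 and 1.49 RPKM at P0 (log2 change 2.09 ± 0.14, adjusted p = 3.54e-10). Trim55 (MURF2) had 53.0, 47.9 and 50.2 RPKM at P7, against 140.1, 136 and 128 RPKM at P0 (log2 change -1.40 ± 0.098, adjusted p = 1.01e-09), and Trim63 (MURF1) averaged 79.96 ± 11.6 RPKM at P7 and 91.9 ± 3.23 at P0 (adjusted p = 0.07). Trim54 and Trim55 thus moved in opposite directions. Asb14, a substrate adaptor of a ubiquitin ligase (1 of 2 entries) averaged 4.002 ± 0.644 RPKM at P7 and 0.636 ± 0.248 at P0 (1.62 ± 0.17).

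**Figure D5:**
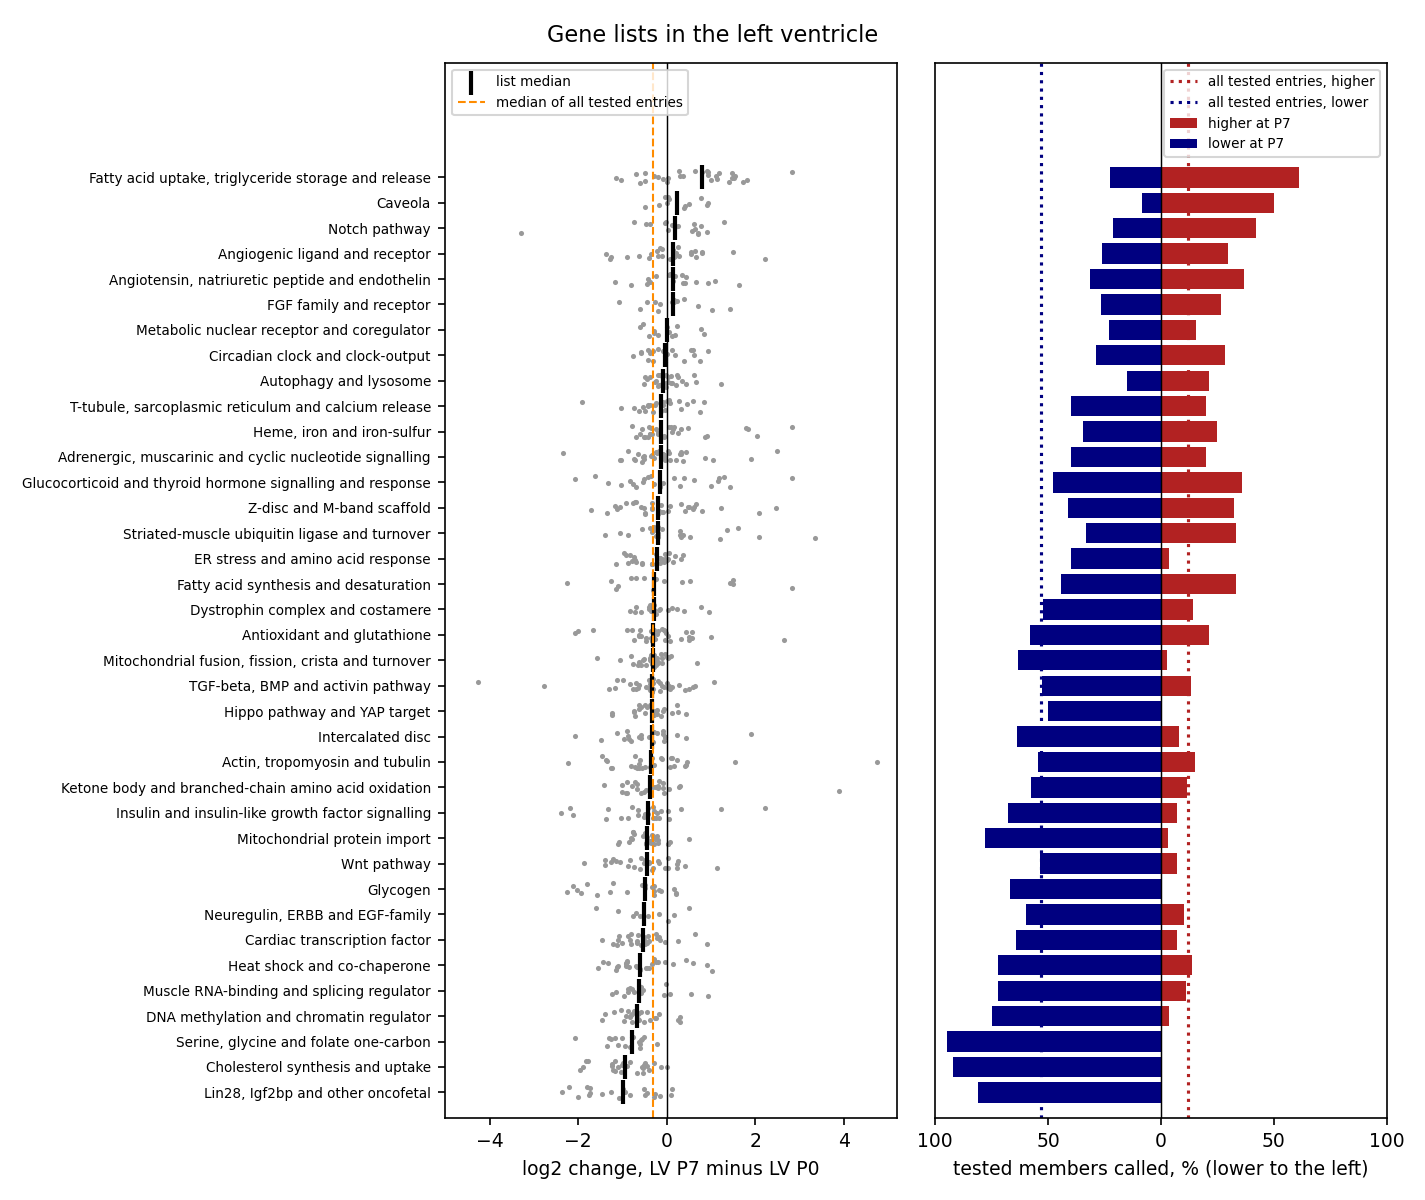
Left, the log2 change from P7 minus P0 (x axis) of every tested member of 37 gene lists (y axis), with the list median as a black bar and the median of all entries dashed. Right, the percentage of tested members called higher (right of 0) and lower (left of 0) at P7, with dotted lines at the shares of all entries (11.8% and 53.0%). Fatty acid uptake and storage is the uppermost list (median 0.79), and serine and one-carbon, cholesterol and oncofetal genes are the lowest (-0.78, -0.95 and -1.0001).

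Oncofetal genes, active in growing fetal tissue and in tumours, fell as a list. In this list of 21 tested genes 0 rose and 17 fell (2 and 13 with upper-quartile scaling), with a median log2 change of -1.0001. Gpc3, glypican 3 (chrX:52272426-52613974), had 20.6, 22.6 and 24.6 RPKM at P7, against 136, 76.4 and 121 RPKM at P0 (log2 change -2.21 ± 0.22, adjusted p = 1.03e-07). Igf2bp3, an RNA-binding protein of growing tissue, had 1.84, 2.62 and 3.23 RPKM at P7, against 14.4, 11.1 and 13.9 RPKM at P0 (log2 change -1.998 ± 0.14, adjusted p = 8.07e-10). Its relative Igf2bp2 had 2.71, 2.96 and 2.77 RPKM at P7, against 13.0, 11.4 and 12.8 RPKM at P0 (log2 change -1.81 ± 0.12, adjusted p = 3.34e-10). In all 3 genes each P7 library was below each P0 library. Insulin and insulin-like growth factor genes rose in 2 of 28 and fell in 19 (4 and 8 with upper-quartile scaling). Igfbp2, an IGF-binding protein of fetal serum, had 0.691, 0.179 and 0.655 RPKM at P7, against 9.67, 3.08 and 6.09 RPKM at P0 (log2 change -2.18 ± 0.29, adjusted p = 3.47e-06). Igfbp7 had 15.3, 11.8 and 18.1 RPKM at P7, against 2.15, 2.78 and 2.37 RPKM at P0 in 1 of 2 entries (log2 change 2.21 ± 0.14, adjusted p = 3.34e-10). The 2 binding proteins moved in opposite directions with no overlap.

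Neuregulin receptors and their relatives fell in 6 of 10 and rose in 1 (5 and 2 with upper-quartile scaling). As deposited 60% of the list fell, against 53.0% of all entries. Erbb2, the co-receptor needed for neuregulin signalling in cardiomyocytes (chr11:98412484-98437716), had 4.38, 3.99 and 4.61 RPKM at P7, against 19.0, 13.2 and 13.4 RPKM at P0 (log2 change -1.59 ± 0.17, adjusted p = 2.69e-07). Erbb4, its ligand-binding partner, averaged 0.829 ± 0.237 RPKM at P7 and 1.99 ± 0.653 at P0 (-0.69 ± 0.18), and this call was lost with LV P7 replicate 1 alone (adjusted p = 0.150). Hippo pathway and YAP target genes fell in 12 of 24 and rose in 0 (8 and 6 with upper-quartile scaling). The 50% that fell as deposited is near the 53.0% of all entries. Tead2, the embryonic TEAD factor, had 16.5, 11.9 and 16.1 RPKM at P7, against 45.5, 28.5 and 35.5 RPKM at P0 (log2 change -1.23 ± 0.17, adjusted p = 5.61e-06). Ccn2, a YAP target also called CTGF, had 19.5, 15.3 and 16.3 RPKM at P7, against 34.2, 51.5 and 40.5 RPKM at P0 (log2 change -1.24 ± 0.19, adjusted p = 2.05e-05). Both groups were separate. In the same list Ccn1, a relative of Ccn2, averaged 19.5 ± 5.69 RPKM at P7 and 17.4 ± 2.14 at P0 (0.12 ± 0.19). It was called, as higher, only after upper-quartile scaling. Ankrd1 averaged 543 ± 68.3 RPKM at P7 and 779 ± 190 at P0 and did not pass (-0.49 ± 0.27, adjusted p = 0.117), while Amotl2 fell (-0.63 ± 0.12).

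Notch pathway genes held calls in both directions. The 19 tested members held 8 that rose and 4 that fell (15 and 2 with upper-quartile scaling), with a median log2 change of 0.18. Against the fall of Hey2, its relative Heyl had 21.1, 18.4 and 22.0 RPKM at P7, against 8.87, 7.64 and 6.95 RPKM at P0 (log2 change 1.29 ± 0.11, adjusted p = 1.45e-08), and the mural receptor Notch3 had 11.8, 11.7 and 15.1 RPKM at P7, against 8.32, 6.46 and 6.36 RPKM at P0 (log2 change 0.78 ± 0.13, adjusted p = 4.12e-05). Lfng, the fringe glycosyltransferase, averaged 7.95 ± 0.119 RPKM at P7 and 3.74 ± 0.0516 at P0 (0.92 ± 0.12). Wnt genes rose in 2 of 28 and fell in 15 (6 and 12 with upper-quartile scaling). The share that fell as deposited, 53.6%, is near the 53.0% of all entries. The Wnt5a receptors Ror2 and Ror1 both fell: Ror2 had 1.85, 1.85 and 2.398 RPKM at P7, against 12.3, 7.98 and 10.5 RPKM at P0 (log2 change -1.88 ± 0.15, adjusted p = 8.16e-09) and Ror1 had 4.75, 4.68 and 4.72 RPKM at P7, against 15.4, 10.3 and 13.0 RPKM at P0 (log2 change -1.26 ± 0.17, adjusted p = 4.07e-06). Both receptors are separated in all libraries. The secreted inhibitors Sfrp5 (0.7999 ± 0.185 RPKM at P7 and 3.89 ± 1.44 at P0, -1.40 ± 0.23) and Wif1 (2.75 ± 0.413 RPKM at P7 and 8.81 ± 1.01 at P0, -1.39 ± 0.15) fell as well.

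In the TGF-beta and BMP list 5 of 38 rose and 20 fell (10 and 13 with upper-quartile scaling). As deposited these were 13.2% and 52.6% of the list, near the 11.8% and 53.0% of all entries. Among ligands, Bmp5 averaged 1.22 ± 0.424 RPKM at P7 and 4.02 ± 0.929 at P0 (-1.18 ± 0.18) beside the falls of Bmp7 and Bmp10, while Bmp4 (4.86 ± 0.512 RPKM at P7 and 2.82 ± 0.834 at P0, 0.64 ± 0.17) and Tgfb1 (28.9 ± 4.33 RPKM at P7 and 18.9 ± 1.43 at P0, 0.58 ± 0.12) rose. Smad6, the inhibitory SMAD induced by BMP signals, had 5.86, 5.71 and 6.31 RPKM at P7, against 15.9, 15.6 and 17.2 RPKM at P0 (log2 change -1.31 ± 0.11, adjusted p = 9.39e-09). Among FGF genes 4 of 15 rose and 4 fell (9 and 1 with upper-quartile scaling): Fgf16, a growth factor of postnatal cardiomyocytes, had 4.24, 2.81 and 2.60 RPKM at P7, against 0.569, 0.615 and 0.464 RPKM at P0 (log2 change 1.43 ± 0.16, adjusted p = 6.41e-07), and the feedback inhibitor Spry1 averaged 23.6 ± 2.89 RPKM at P7 and 11.1 ± 0.0220 at P0 (1.02 ± 0.099). Dusp4, a MAP kinase phosphatase, averaged 0.806 ± 0.173 RPKM at P7 and 2.84 ± 0.471 at P0 (-1.08 ± 0.13).

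Angiogenic ligands and receptors rose in 8 of 27 and fell in 7 (14 and 5 with upper-quartile scaling). Aplnr, the apelin receptor (chr2:85136360-85139923), had 97.6, 85.2 and 98.6 RPKM at P7, against 26.6, 19.3 and 14.3 RPKM at P0 (log2 change 2.21 ± 0.17, adjusted p = 3.57e-09). Epas1, or HIF-2 alpha, of endothelium, had 58.8, 56.3 and 68.3 RPKM at P7, against 22.5, 20.2 and 20.03 RPKM at P0 (log2 change 1.501 ± 0.11, adjusted p = 3.34e-09), whereas Hif1a averaged 39.2 ± 1.23 RPKM at P7 and 60.8 ± 4.71 at P0 (-0.62 ± 0.087). Angpt1, the TIE2 ligand, had 4.23, 2.44 and 1.61 RPKM at P7, against 8.41, 6.36 and 8.60 RPKM at P0 (log2 change -1.28 ± 0.21, adjusted p = 3.03e-05). The separate groups of Epas1 and Hif1a moved in opposite directions. Among angiotensin, natriuretic peptide and endothelin genes 7 of 19 rose and 6 fell (11 and 2 with upper-quartile scaling): Ace, angiotensin converting enzyme, had 4.37, 4.41 and 5.17 RPKM at P7, against 0.819, 1.06 and 0.603 RPKM at P0 in 1 of 2 entries (log2 change 1.63 ± 0.13, adjusted p = 7.37e-09), Npr1, the receptor of atrial natriuretic peptide, averaged 14.7 ± 1.53 RPKM at P7 and 7.25 ± 0.599 at P0 (0.93 ± 0.12), and Agt, angiotensinogen, averaged 2.53 ± 0.603 RPKM at P7 and 0.656 ± 0.125 at P0 (1.08 ± 0.15).

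Adrenergic and cyclic nucleotide genes rose in 7 of 35 and fell in 14 (14 and 8 with upper-quartile scaling). Adrb1, the main cardiac beta receptor, averaged 7.06 ± 1.49 RPKM at P7 and 4.93 ± 0.183 at P0 (0.43 ± 0.14), and Adra1b, an alpha1 receptor, averaged 11.7 ± 3.85 RPKM at P7 and 5.05 ± 0.872 at P0 (1.04 ± 0.17). Rgs4, which shortens G protein signals, had 8.59, 7.92 and 8.07 RPKM at P7, against 1.18, 1.52 and 1.71 RPKM at P0 (log2 change 1.90 ± 0.12, adjusted p = 2.53e-10). Ppp1r1a, inhibitor 1 of protein phosphatase 1, a target of protein kinase A, had 6.38, 3.56 and 5.73 RPKM at P7, against 37.1, 26.9 and 27.2 RPKM at P0 (log2 change -2.35 ± 0.17, adjusted p = 1.56e-09). All 3 P7 values of Rgs4 lay above, and all 3 of Ppp1r1a below, the P0 values. Chrm2, the muscarinic receptor of heart, averaged 5.95 ± 2.54 RPKM at P7 and 11.4 ± 0.828 at P0 (-0.89 ± 0.21).

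Glucocorticoid and thyroid response genes moved both ways. Calls among the 25 tested members were 9 higher and 12 lower (10 and 8 with upper-quartile scaling), with a median log2 change of -0.15. Thrsp, a thyroid-responsive gene of lipid synthesis, had 4.41, 2.78 and 3.69 RPKM at P7, against 0.579, 0.967 and 0.568 RPKM at P0 (log2 change 1.43 ± 0.13, adjusted p = 5.34e-08), Hr, the thyroid-induced corepressor hairless, had 2.26, 1.53 and 1.88 RPKM at P7, against 0.109, 0.228 and 0.213 RPKM at P0 (log2 change 1.28 ± 0.10, adjusted p = 6.39e-09). Klf15 had 3.91, 3.40 and 3.86 RPKM at P7, against 12.3, 13.8 and 14.3 RPKM at P0 (log2 change -1.61 ± 0.12, adjusted p = 2.04e-09). The glucocorticoid receptor Nr3c1 averaged 16.6 ± 0.706 RPKM at P7 and 12.5 ± 0.719 at P0 (0.38 ± 0.12). Among clock genes 6 of 21 rose and 6 fell (10 and 2 with upper-quartile scaling). Dbp, an output gene of the clock, had 14.3, 9.40 and 10.7 RPKM at P7, against 5.40, 4.98 and 5.90 RPKM at P0 (log2 change 0.94 ± 0.18, adjusted p = 0.000143), Nr1d1, or REV-ERB alpha, averaged 10.7 ± 1.69 RPKM at P7 and 5.97 ± 0.567 at P0 (0.74 ± 0.13), and Per2 averaged 1.54 ± 0.0656 RPKM at P7 and 3.30 ± 0.468 at P0 (-0.75 ± 0.14). No source used here gives the time of day of sampling, and its part in these values was not tested. Of 16 clock genes with a listed promoter, CACGTG occurs in 2 (Ciart and Cry1), against 8.09% of all genes and 11.6% of the tested genes, a share near this background. TTATGTAA on either strand occurs in 1 (Per3), against 1.11% of all genes and 0.611% of the tested genes. Among metabolic nuclear receptors and coregulators 2 of 13 rose and 3 fell (7 and 1 with upper-quartile scaling), with Perm1, a muscle regulator of oxidative genes, at 25.6 ± 3.09 RPKM at P7 and 14.7 ± 3.00 at P0 (0.77 ± 0.16) and Ppargc1a, for the coactivator PGC-1 alpha, at 0.784 ± 0.136 RPKM at P7 and 1.60 ± 0.171 at P0 (-0.55 ± 0.11).

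Transcription factors of the heart fell in 18 of 28 and rose in 2 (13 and 4 with upper-quartile scaling). Gata6, a zinc-finger factor of early heart, had 38.6, 30.03 and 36.2 RPKM at P7, against 80.9, 72.3 and 75.6 RPKM at P0 (log2 change -1.11 ± 0.089, adjusted p = 6.83e-09), and the T-box factor Tbx20 had 15.8, 16.2 and 16.1 RPKM at P7, against 44.0, 32.8 and 39.6 RPKM at P0 in 1 of 3 entries (log2 change -1.22 ± 0.13, adjusted p = 3.22e-07). Nkx2-5 averaged 51.2 ± 8.95 RPKM at P7 and 94.7 ± 9.72 at P0 (-0.88 ± 0.11) and Gata4 54.7 ± 4.12 RPKM at P7 and 75.7 ± 9.53 at P0 (-0.46 ± 0.10), the call of Gata4 ending after upper-quartile scaling. Muscle RNA-binding genes fell in 13 of 18 and rose in 2 (11 and 3 with upper-quartile scaling): Rbm24, a splicing regulator of sarcomere genes, had 60.0, 49.3 and 53.4 RPKM at P7, against 111, 93.1 and 116 RPKM at P0 (log2 change -0.96 ± 0.095, adjusted p = 1.04e-07), the splicing regulator Khdrbs3 averaged 17.03 ± 1.64 RPKM at P7 and 41.3 ± 0.841 at P0 (-1.23 ± 0.10), and Rbfox1 averaged 1.25 ± 0.183 RPKM at P7 and 0.177 ± 0.0397 at P0 in 1 of 2 entries (0.93 ± 0.13).

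Chromatin genes fell in 21 of 28 and rose in 1 (19 and 3 with upper-quartile scaling). Lmnb1, lamin B1, had 19.96, 18.1 and 20.8 RPKM at P7, against 60.5, 48.8 and 51.3 RPKM at P0 (log2 change -1.40 ± 0.13, adjusted p = 4.56e-08), while Lmna, for lamin A and C, averaged 7.92 ± 1.497 RPKM at P7 and 6.21 ± 0.420 at P0 (0.30 ± 0.11), the 1 member that rose. H2az1, a histone variant gene, averaged 54.1 ± 5.73 RPKM at P7 and 151 ± 21.0 at P0 (-1.46 ± 0.19), and Hmgb2, a nuclear protein of dividing cells, 47.2 ± 3.93 RPKM at P7 and 109 ± 12.2 at P0 (-1.19 ± 0.13). Among actin, tropomyosin and tubulin genes 5 of 33 rose and 18 fell (11 and 12 with upper-quartile scaling). As deposited these were 15.2% and 54.5% of the list, near the 11.8% and 53.0% of all entries. Tubb2b, a beta-tubulin of developing neurons and muscle, had 15.4, 17.7 and 19.8 RPKM at P7, against 90.5, 86.9 and 79.8 RPKM at P0 (log2 change -2.22 ± 0.14, adjusted p = 2.57e-10). Tuba4a had 113, 85.3 and 98.7 RPKM at P7, against 25.4, 44.7 and 32.4 RPKM at P0 (log2 change 1.54 ± 0.24, adjusted p = 2.03e-05). The alpha-tubulins Tuba4a and Tuba8 thus rose beside the fall of Tuba1a, Tuba1b (-1.27 ± 0.14) and Tuba1c (-1.23 ± 0.15).

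Several genes had entries that moved apart. Of 369 genes with at least 2 tested entries, 17 had entries called in opposite directions, 11 after upper-quartile scaling and 8 with an expression filter of 5 RPKM. The Cxcl12 entry NM_001012477 had 7.998, 7.92 and 10.3 RPKM at P7, against 2.77, 2.87 and 2.66 RPKM at P0 (log2 change 1.36 ± 0.15, adjusted p = 4e-07), and the entry NM_021704 had 11.4, 10.6 and 11.1 RPKM at P7, against 34.4, 24.4 and 32.0 RPKM at P0 (log2 change -1.36 ± 0.13, adjusted p = 4.35e-08). Cxcl12 encodes a chemokine of stroma and vessels, and both differences separate all libraries. The Ndrg4 entry NM_001195006 averaged 21.5 ± 2.18 RPKM at P7 and 12.3 ± 1.46 at P0 (0.76 ± 0.15) and NM_145602 2.71 ± 0.133 RPKM at P7 and 8.51 ± 0.784 at P0 (-1.35 ± 0.11). The Mlf1 entry NM_001039543 averaged 48.7 ± 1.002 RPKM at P7 and 31.0 ± 7.06 at P0 (0.66 ± 0.13) and NM_010801 9.94 ± 1.48 RPKM at P7 and 26.1 ± 1.11 at P0 (-1.32 ± 0.12). In both genes the entry with the higher level at P7 rose. For Hopx, a small homeodomain protein of the heart, NM_001159900 averaged 18.7 ± 4.66 RPKM at P7 and 13.0 ± 0.445 at P0 (0.47 ± 0.15) and NM_175606 52.8 ± 6.57 RPKM at P7 and 107 ± 13.4 at P0 (-1.01 ± 0.11), and the first of these calls was lost without LV P7 replicate 1 (adjusted p = 0.0816). For Hacd1, a muscle acyl-CoA dehydratase, NM_013935 averaged 86.3 ± 8.76 RPKM at P7 and 56.5 ± 9.33 at P0 (0.61 ± 0.12) and NM_001012396 25.6 ± 2.57 RPKM at P7 and 40.5 ± 2.97 at P0 (-0.64 ± 0.11), the call of NM_001012396 ending after upper-quartile scaling. Ndufv3 had NM_001083891 at 936 ± 95.5 RPKM at P7 and 716 ± 123 at P0 (0.39 ± 0.12) and NM_030087 at 17.3 ± 1.35 RPKM at P7 and 31.0 ± 2.01 at P0 (-0.80 ± 0.11); the call of NM_001083891 was lost without LV P7 replicate 3 or without LV P0 replicate 1 (adjusted p up to 0.0677) and with LV P7 replicate 1 alone (0.280). No source used here says how reads shared by the entries of a gene were divided, so these are differences between deposited entries.

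The change of the LV was also set against that of the RV, by the interaction of chamber and age. Of 10668 entries 4 differed (0.0375%), all at an adjusted p of 0.049, with 516 at an unadjusted p under 0.05. The 516 are about as many as a threshold of 0.05 passes over 10668 tests where no entry differs. The 4 were Hand1, Phkg1, Mybphl and Nppb, and 0 were called under upper-quartile scaling, scaling to an equal total, a pseudocount of 0.1 or a fit without a trend. Leaving out 1 library at a time gave between 0 and 4, with 0 in 5 of the 11 such fits (without LV P7 replicate 2 or 3, RV P7 replicate 1, or RV P0 replicate 2 or 3). With no filter 4 entries were called as well, and none of the 4 named here was among them (adjusted p from 0.125 to 0.297). This fit takes the libraries as independent, yet deviations of LV and RV libraries of the same age and number correlated at 0.27 to 0.59 in all 8 such pairs. With the number as a replicate block 5 entries were called and the call of Hand1 was lost (adjusted p = 0.0648). With age and number together as the block, which leaves LV P7 replicate 3 without a partner, 35 entries were called, among them Hand1 (adjusted p = 0.0115), Phkg1 (0.00707), Mybphl (0.000717) and Nppb (6.04e-05). The SD of the RV at P7 is over 2 libraries. Mybphl, a relative of myosin binding protein C found in atria and conduction tissue, had 1.92, 2.69 and 2.99 RPKM at P7, against 1.27, 1.40 and 1.75 RPKM at P0 in the LV and averaged 1.54 ± 0.877 RPKM at P7 and 4.89 ± 1.28 at P0 in the RV, and its LV call was lost with LV P7 replicate 1 alone (adjusted p = 0.503). Phkg1, the catalytic subunit of muscle phosphorylase kinase, had 0.7995, 0.491 and 0.689 RPKM at P7, against 0.886, 0.905 and 0.817 RPKM at P0 in the LV and averaged 1.75 ± 0.202 RPKM at P7 and 0.476 ± 0.107 at P0 in the RV. In the LV its change did not pass (log2 change -0.18 ± 0.13, adjusted p = 0.229). Hand1 averaged 0.134 ± 0.105 RPKM at P7 and 5.33 ± 2.27 at P0 in the LV and is listed at 0 in both RV P7 libraries, against 1.05 ± 0.0587 in the RV at P0. Nppb, for brain natriuretic peptide, averaged 169 ± 34.2 RPKM at P7 and 275 ± 90.7 at P0 in the LV and 43.4 ± 14.5 RPKM at P7 and 347 ± 88.5 at P0 in the RV. For the other genes named here the difference between chambers did not pass in the fit without a block. The 3 extreme values that did not pass in the negative direction were Gpnmb (-1.63 ± 0.58), Gtsf1 (-1.41 ± 0.45) and Spp1 (-1.33 ± 0.72), and in the positive direction Nts (1.14 ± 0.37), Stfa1 (1.26 ± 0.41) and Myl7 (1.77 ± 0.47). Of these 6, Gtsf1, Nts, Stfa1 and Myl7 were called with the block of age and number, as were Acta2, Ankrd23, Capn6, Cox8b, Phgdh and Ppp1r1b among genes described above.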

How the data were processed

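Strand-specific paired-end RNA-seq libraries of total RNA were used, 17 in all, 1 file per sample. They came from the 6 LV P7 and LV P0 samples and 11 other samples of the LV and RV. Reads were aligned with STAR 2.4.0j to mm10, per the submitters' processing notes. The deposited value is 1 RPKM per RefSeq messenger RNA entry and library, normalised by the authors; the unit was read from the values, and no source used here names the counting step. The files hold 20624 entries, of which 20375 were named from a RefSeq table (GRCm38.p6), 80 from GENCODE and 169 not at all; coordinates are those of GRCm38.p6.

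Tested were the 10668 entries that reached 1 RPKM in 2 or more of 17 libraries, on log2(RPKM + 1) with limma 3.58.1 (R 4.3.3): group means over all 17 libraries, empirical Bayes moderation with a trend, Benjamini-Hochberg adjustment over all tested entries and a threshold of 0.05. The same fit tested the difference between chambers. The method was tested on simulated data. Tables and figures used Python 3.11.15, numpy 2.4.6, pandas 2.3.3 and matplotlib 3.10.9. P-values measure the spread between libraries labelled as biological replicates.

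Named genes are the 15 highest and 15 lowest without overlap between the groups, called under both scalings and averaging 5 RPKM or more at the age where they are higher; the 4 called members of largest change in each list; every isozyme pair; and the entries with opposite calls. Some genes that this rule names are not reported here. Other members named in the text were chosen after their values were seen. The groups, gene lists and pairs were chosen with earlier results of these data known. The depth, estimated at 27635550 to 41144950 reads over all libraries, was read from the steps between low values.

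Alternatives were upper-quartile scaling, an equal total per library, a pseudocount of 0.1, no filter or a filter of 5 RPKM, entries summed per gene, no trend, only the LV libraries, a replicate block and leaving out each library. The values of LV P7 replicate 1 alone, the block within the 6 LV libraries and a block of age and number for the test between chambers were added after seeing the data. Deviations of LV and RV libraries of the same age and number correlated at over 0.1 in all 8 pairs.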

Additional observations from a re-analysis of the deposited data

Results flagged for a closer look

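The change over the first week differed between the chambers for 4 entries by the interaction test of limma (adjusted p = 0.049 for each), the LV change minus the RV change on the log2 scale being -1.39 for Hand1, -1.07 for Phkg1, 1.74 for Mybphl and 2.33 for Nppb. Hand1, a ventricular transcription factor, had 0.0889, 0.254 and 0.0579 RPKM at P7, against 7.94, 3.82 and 4.22 RPKM at P0 in the LV, and its RV levels were lower at both ages. In the RV it averaged 1.05 ± 0.0587 RPKM at P0 and is listed at 0 in both P7 libraries. That is the floor of the log2(RPKM + 1) scale, which limits the size of the RV change (-1.03). Nppb had 131, 179.9 and 197 RPKM at P7, against 176, 292 and 355 RPKM at P0 in the LV, where the groups overlapped, and averaged 43.4 ± 14.5 RPKM at P7 and 347 ± 88.5 at P0 in the RV. The LV change of Mybphl was 0.51 (adjusted p = 0.0306, and 0.503 with LV P7 replicate 1 alone). That of Phkg1 was -0.18 and did not pass (adjusted p = 0.229), while its RV level averaged 1.75 ± 0.202 RPKM at P7 and 0.476 ± 0.107 at P0. After upper-quartile scaling the adjusted p was 0.0706 for Hand1 and 0.0553 for the other 3. With a pseudocount of 0.1 the adjusted p was 0.999 for Hand1 and 0.0724 to 0.0771 for the other 3. The RV at P7 has 2 libraries, and the expression of Mybphl, Phkg1 and Hand1 was below 10 RPKM in every LV library.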

How the results depend on the processing

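Of the 6922 entries called, the total stayed within 1.5 times under the alternative scalings, filters and models (5302 after upper-quartile scaling to 7751 with no filter), and was 4513 with LV P7 replicate 1 alone, where 3511 were lower. The split by direction moved with the scaling, from 1264 higher and 5658 lower as deposited to 2604 higher and 2698 lower after upper-quartile scaling and 2109 higher and 3206 lower at an equal total per library. A filter of 5 RPKM left 806 higher. Leaving out 1 library gave 6066 to 6708 called, 1089 to 1258 higher and 4808 to 5552 lower. The difference between chambers gave 0 entries after upper-quartile scaling, at an equal total, with a pseudocount of 0.1, with a filter of 5 RPKM and without a trend, 0 to 4 when 1 library was left out, and 35 with a replicate block of age and number. Of 296 named entries upper-quartile scaling turned 4, none of them then called: Atp1b3 (0.0062), Atp5g1 (0.069), Cfl2 (0.039) and Cox7a2 (0.095, and 0.012 at an equal total); the cause was not tested beyond the shift of 0.29 that this scaling makes in the median. It left 265 on their side of the threshold, and LV P7 replicate 1 alone left 273 and ended the call of 22, among them Cox6a2, Cpa3, Erbb4, Mybphl, Actc1, Myl2 and Prox1. Leaving out 1 library ended the call of 20 named entries in at least 1 fit, among them Cavin4, Hk2, Cox7a1, Cox7a2, Acacb, Apoa2, Myh6 and Nppb. Deviations of libraries with the same number correlated at 0.01 to 0.05 between LV P7 and LV P0, so the numbers do not pair these samples. With a replicate block 7250 entries were called (1319 higher, 5931 lower), and within the 6 LV libraries the block gave 7320. Depth limits entries under about 1 RPKM, whose log2 changes are shrunk by the pseudocount.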
